A study of Mus musculus with 8 samples.

Results

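The histone cluster genes are the members of the mouse Hist1, Hist2, Hist3 and Hist4 loci, taken here by symbol (Hist1h, Hist2h, Hist3h or Hist4h at its start) from the genes of the deposited count tables. The rule found 69 of 27998 features, carrying 68 symbols because Hist2h2bb is listed under 2 identifiers. By histone type they are 6 H1, 19 H2A, 19 H2B, 12 H3 and 13 H4 genes. In the GENCODE annotation of GRCm38, 53 members lie on chromosome 13, 11 on chromosome 3, 2 on chromosome 11 and 1 on chromosome 6. Cells came from 4 wild-type mice per time point, aged 12 to 14 weeks, that had received a subcutaneous injection of either 100 µl PBS (control) or 50000 IU recombinant mouse IFNα per 20 g body weight 3, 24 or 72 h earlier. Lin- cKit+ (LK) bone marrow cells were sorted, topped up with LK CD150+ CD48- CD34- stem cells, and labelled with a hashtag antibody per mouse. The 4 mice of a time point shared 1 droplet library, so the time after injection and the library cannot be told apart, and the p-values below measure the spread between mice.

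Core histones (H2A, H2B, H3 and H4) form the protein spool of the nucleosome, and linker histones (H1) bind the DNA between spools. Most cluster genes are replication-dependent: their transcripts accumulate in S phase and end in a conserved stem-loop, bound by SLBP, instead of a poly(A) tail. A smaller number of cluster genes, such as Hist1h1c, Hist1h2bc and Hist1h2be, are known to give polyadenylated transcripts as well, often in cells that have stopped dividing. Libraries made with a poly(A)-primed kit, as here, therefore see cluster transcripts mainly where they carry a tail or an internal run of A.

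Members were sorted by their annotated transcripts. A match to the histone stem-loop consensus on the sense strand, without a long polyadenylated transcript made a gene replication-dependent (31 members). A transcript ending at least 150 bases after the coding region, with AATAAA or ATTAAA in its last 60 bases, made it polyadenylated (16 members), and 22 members whose annotated transcripts allowed neither call stayed unclassed. The stem-loops differ little, and they are shown for the members that the results turn on, with 5 bases of flank where the transcript reaches that far and the stem-loop in capitals.
Hist1h2ap: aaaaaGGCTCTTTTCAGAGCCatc
Hist1h2ae: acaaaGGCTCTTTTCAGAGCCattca
Hist1h1e: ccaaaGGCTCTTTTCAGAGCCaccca
Hist1h3c: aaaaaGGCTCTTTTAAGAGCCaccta
Hist1h4d: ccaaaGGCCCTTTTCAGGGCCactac
Hist1h4i: ttaaaGGCCCTTTTTAGGGCCaccac
The form in Hist1h2ap, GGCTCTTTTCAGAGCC, was found in 24 of the 44 members with a stem-loop, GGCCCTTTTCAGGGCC in 7 H4 genes and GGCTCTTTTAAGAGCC in 6 members. Linker and core genes share the first form. Of the tested members, 13 of 22 with the first form, 4 of 6 with the second and 4 of 5 with the third were higher at 3 h, against 19.7% of all tested genes. The form in Hist1h4i, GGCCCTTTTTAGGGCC, was found in 2 H4 genes, of which 0 were higher and 1 was lower at 3 h by edgeR's quasi-likelihood test (median log2 fold change -0.46).

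Where poly(A) priming could start inside a message, runs of A matter, and 4 members hold a run of at least 10. Hist1h2ap and its neighbour Hist1h2ao share a run of 12 that ends at the stem-loop, shown here with the run in capitals, and Hist1h2ac has the longest.
Hist1h2ap: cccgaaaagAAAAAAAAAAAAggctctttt
Hist1h2ac: ctaggagAAAAAAAAAAAAAAAgttctatg
Hist1h2be: gagacctggAAAAAAAAAAAtcagttccta
The runs of Hist1h2ac and Hist1h2be start 856 and 850 bases after the coding end, and their stem-loops 32 and 29 bases after it. A transcript ending at the stem-loop would lack these runs. The part of such priming in the values below was not tested.

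The 250 bases before the start are shown for a linker and a core gene (RefSeq promoter windows, GRCm38.p6). They were chosen because core members, but no H1 member, passed the test over all cells. Capitals mark the CCAAT box (printed in its reverse complement form where it lies on the other strand), the TATAAA box and, in Hist1h1e, the AAACACA element, a sequence known from H1 promoters.
Hist1h1e, chr13:23622559-23622808, minus strand: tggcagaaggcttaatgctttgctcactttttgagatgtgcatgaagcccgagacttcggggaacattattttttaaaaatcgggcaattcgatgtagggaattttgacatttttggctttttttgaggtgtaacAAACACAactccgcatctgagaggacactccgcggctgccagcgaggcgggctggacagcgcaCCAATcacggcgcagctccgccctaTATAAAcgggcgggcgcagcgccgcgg
Hist1h4d, chr13:23581318-23581567, plus strand: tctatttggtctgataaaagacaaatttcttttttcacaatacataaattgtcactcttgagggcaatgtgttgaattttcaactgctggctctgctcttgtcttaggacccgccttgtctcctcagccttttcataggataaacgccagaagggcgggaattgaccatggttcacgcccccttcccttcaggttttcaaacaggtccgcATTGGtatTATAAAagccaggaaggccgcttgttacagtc
Windows of 300 bases (250 before to 50 after the start) were matched for 60 members and searched on both strands. CCAAT was present in 51 of 60 (85.0%) against 37.4% of all 32851 promoters, TATAAA in 35 (58.3%) against 13.6%, and AAACACA in 8 (13.3%) against 7.18%. AAACACA was present in 5 of 6 H1, 2 of 18 H2A, 1 of 14 H2B, 0 of 10 H3 and 0 of 12 H4 windows. CCAAT was in 6 of 6 H1, 18 of 18 H2A, 14 of 14 H2B, 10 of 10 H3 but only 3 of 12 H4 windows. A match describes the letters of the window, not a bound site.

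After filtering (1 hashtag, at most 5% mitochondrial UMIs, at least 700 genes), 2474 control, 1661 3 h, 3462 24 h and 2449 72 h cells remained. Median UMIs per cell were 18964.5, 12017, 18953.5 and 14763, so the 3 h library was the shallowest. Summed counts per mouse ranged from 1102706 (control mouse 4, 58 cells) to 26446327, and at most 1 kept barcode was shared by any pair of libraries. The treatment was visible in all 10 interferon-stimulated genes listed, which rose at 3 h and at 24 h (median log2 fold change 5.92 and 2.0), while 0 were higher and 1 was lower at 72 h. Summed levels of markers of cells that the LK gate should lack stayed low for mature neutrophils and macrophages (7 genes, 0.438 to 2.90 CPM per mouse, 0 to 1 genes at 0), and ranged from 33.6 to 71.9 CPM for B lymphoid (7 genes, 0 to 2 at 0), 315 to 608 CPM for T and NK (5 genes, 0 to 1 at 0) and 26.5 to 35.7 CPM for stromal and endothelial lists (6 genes, 0 to 1 at 0).

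The members gave 312284 UMIs. Replication-dependent members held 39.5% of them, polyadenylated members 20.0% and unclassed members 40.5%. Of all UMIs in a mouse, the members made up 0.125 to 0.143% in control, 0.187 to 0.236% at 3 h, 0.132 to 0.168% at 24 h and 0.135 to 0.187% at 72 h. Only at 3 h did every mouse lie above every control mouse by this measure of all UMIs. Hist1h2bq, Hist1h2br and Hist1h2ba (the last a testis histone) had 0 UMIs, and 11 members had fewer than 100.

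Most tested core members were higher 3 h after IFNα, and no H1 member passed the test over all cells. UMI counts were summed per mouse and compared with edgeR's quasi-likelihood test, with p-values adjusted by Benjamini-Hochberg over all 12042 genes tested, and a gene passed at an adjusted p under 0.05. Of the 69 members 57 had enough counts to be tested. Hist1h2ai, Hist1h4k and Hist1h2al were among them through treated mice, so the filter on low counts favoured a rise in these genes. Hist1h2al had 0 to 0.426 CPM in controls and 1.98 to 2.66 CPM at 3 h. The same filter was used within classes and phases, where members low in controls could also enter through treated mice. At 3 h, 38 of the 57 tested members were higher and 1 was lower, where 19.7% of all tested genes were higher and 19.2% lower. At 24 h, 25 were higher and 3 lower (14.5% and 13.8% of all genes), and at 72 h, 27 were higher and 4 lower (18.9% and 18.5%). The median log2 fold change of tested members was 0.84, 0.34 and 0.41 at the 3 times, against -0.03, 0.00 and 0.02 over all tested genes. Without control mouse 1 the count at 24 h was 16 instead of 25, and with each cell thinned to 5000 UMIs it was 22, 10 and 13 of 41 tested members higher. The study also asked for a log fold change over 1, in at least 1 cluster. With an absolute log2 fold change over 1 in these whole-compartment sums, 23, 7 and 11 members were higher and 0, 0 and 1 lower. Of all tested genes 6.9, 2.22 and 2.86% passed this limit. Scaling by library size alone shifted the median of all genes at 3 h to -0.18, and 33 members were then higher and 5 lower. The 3 comparisons share the control mice. Of 12 tested myeloid progenitor markers 11, 12 and 12 were lower at the 3 times, and of 12 HSC markers 6, 10 and 10 were higher, and the part of cell makeup in the members' values was not tested. In these sums, more cells of a kind and more RNA per cell cannot be told apart.

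By type, 13 of 16 tested H2A, 10 of 15 H2B, 8 of 10 H3 and 7 of 11 H4 genes were higher at 3 h, with medians of 1.27, 0.66, 0.95 and 0.93. For H1, 0 of 5 passed at any of the 3 times (edgeR quasi-likelihood test; 0, 3 and 0 at an unadjusted p under 0.05), with medians of -0.08, -0.24 and -0.01. DESeq2's Wald test called 0 of 5 at all 3 times too. Under library-size scaling, Hist1h1a and Hist1h1c passed as lower at 3 h, and Hist1h1b passed as lower at 72 h with cells thinned to 5000 UMIs. With the hashtag number as a block, Hist1h1a and Hist1h1d passed as lower at 24 h. The grouping of linker against core genes was chosen after the values were seen, and the difference between the groups was not tested. By class, 20 of 27 replication-dependent members were higher at 3 h and 0 lower (median 0.92), 5 of 13 polyadenylated members were higher and 1 lower (median -0.18), and 13 of 17 unclassed members were higher and 0 lower (median 1.11). At 24 h the classes counted 14, 4 and 7 higher with 2, 1 and 0 lower, and at 72 h 14, 4 and 9 higher with 3, 1 and 0 lower.

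**Figure D1:**
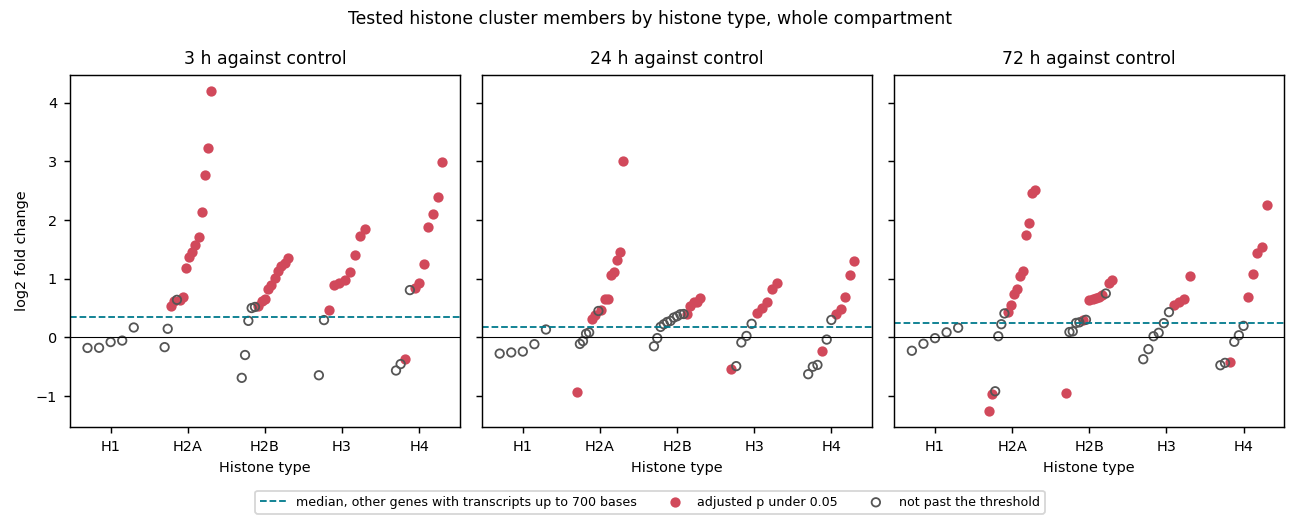
The log2 fold change of each of the 57 tested members (y axis) by histone type (x axis) at 3, 24 and 72 h against control in the whole compartment; filled points passed at an adjusted p under 0.05, open points did not, and the dashed line is the median of 257 other tested genes whose longest transcript is up to 700 bases (0.35, 0.17 and 0.24). At 3 h the H2A genes spread from -0.17 to 4.20, while all 5 H1 genes lie between -0.18 and 0.17 and are open at each time.

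Hist1h2ap, an H2A gene on chromosome 13 (21833026 to 21833507, minus strand, GRCm38, 1 exon), had the highest log2 fold change of the tested members in each of the 3 comparisons over the whole compartment. Its level was 18.0, 18.9, 20.6 and 18.3 CPM (counts per 1e6 UMIs of the mouse, on the TMM-scaled library size) in control mice 1 to 4. It was 302, 304, 394 and 408 CPM in the 3 h mice, 127, 151, 169 and 170 CPM at 24 h, and 108, 116, 85.5 and 126 CPM at 72 h. All 12 treated mice lay above all 4 controls, and the groups at 3 and 24 h did not overlap each other. The log2 fold change was 4.20 (SE 0.14, adjusted p = 3.1e-17), then 3.01 (SE 0.13, adjusted p = 9.6e-14) and 2.51 (SE 0.13, adjusted p = 2.7e-12). Its neighbour Hist1h2ao, with the same run of A before its stem-loop, was not higher at any time (-0.17, -0.93 and -0.92; 155 UMIs in all), and passed as lower at 24 h (adjusted p = 0.049).

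Hist1h2ap shares 90-base stretches with 19 other genes, most of them H2A, and like every member with such copies its count is uncertain where reads could have been assigned between copies. The counts as deposited keep reads that match 1 gene. Of 22 members sharing no such stretch 18 were tested: 8 were higher at 3 h, 4 at 24 h and 7 at 72 h, with 1, 2 and 1 lower. Over all tested genes 19.7, 14.5 and 18.9% were higher and 19.2, 13.8 and 18.5% lower, so the 24 h counts lay near these shares. Among these 18 members, the replication-dependent H4 genes Hist1h4c and Hist1h4d and the H2A gene Hist1h2ac were higher at all 3 times (3 h log2 fold changes 1.88, 1.24 and 1.46). The H1 gene Hist1h1d did not pass (-0.08, -0.26 and -0.01), and Hist1h3d, an H3 gene, was lower at 24 h (-0.54, adjusted p = 0.026).

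Hist1h2ae, a second H2A gene, stood at 69.9, 76.5, 75.8 and 85.3 CPM in the controls and at 306, 285, 355 and 371 CPM at 3 h. It then was at 137, 153, 165 and 172 CPM at 24 h and at 257, 270, 198 and 283 CPM at 72 h. All treated mice lay above all controls, and the 72 h mice lay above all 24 h mice. The log2 fold changes were 2.14 (SE 0.10, adjusted p = 5.7e-14), 1.07 (SE 0.10, adjusted p = 3.9e-08) and 1.75 (SE 0.10, adjusted p = 9.3e-12). Its annotated transcript carries a stem-loop and, 28 bases before its end, a poly(A) signal, which put it in the polyadenylated class.

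Hist1h4d encodes H4, shares no 90-base stretch with another gene, and lies on the plus strand of chromosome 13 (23581598 to 23582735). Control mice had 68.3, 81.9, 71.1 and 72.2 CPM and 3 h mice 157, 158, 177 and 204 CPM. At 24 h it was at 79.2, 96.5, 102 and 112 CPM, and at 72 h at 129, 128, 91.2 and 126 CPM. All mice at 3 and 72 h exceeded all controls, while 3 of 4 did at 24 h (log2 fold changes 1.24, 0.41 and 0.69, all passing). Hist1h4h, another H4 gene, moved more, from 9.74 to 12.4 CPM in controls to 47.0 to 64.8 CPM at 3 h (log2 fold changes 2.39, 1.06 and 1.54).

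Among the other replication-dependent members with the highest levels, Hist2h2ac (H2A, chromosome 3) had 35.7, 38.5, 37.1 and 40.0 CPM in controls and 60.4, 52.8, 55.3 and 71.5 CPM at 3 h. Hist1h2ab (H2A) had 18.5, 21.8, 19.6 and 21.8 CPM in controls and 60.6, 59.1, 64.4 and 78.5 CPM at 3 h. Hist1h3c (H3) had 19.8, 25.3, 22.1 and 21.8 CPM in controls and 42.0, 31.4, 45.1 and 48.9 CPM at 3 h. In these 3 genes every 3 h mouse exceeded every control. Their log2 fold changes were 0.68, 1.71 and 0.92 at 3 h, 0.31, 0.66 and 0.61 at 24 h, and 0.55, 1.04 and 0.65 at 72 h, all passing. The 24 h call of Hist2h2ac (adjusted p = 0.039 in edgeR's quasi-likelihood test) was lost without control mouse 1, 2 or 3 or without 24 h mouse 3 or 4 (log2 fold changes 0.28, 0.33, 0.31, 0.25 and 0.27), and with the hashtag number as a block (0.26).

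No H1 member of the clusters passed the test over the whole compartment, although some groups of mice stood apart from the controls. Hist1h1b, which gave 78708 of the member UMIs, had 460, 472, 407 and 379 CPM in controls and 406, 365, 445 and 458 CPM at 3 h. It had 297, 335, 396 and 409 CPM at 24 h and 395, 452, 276 and 365 CPM at 72 h. These groups overlapped and no comparison passed (log2 fold changes -0.05, -0.28 and -0.23; adjusted p = 0.75, 0.073 and 0.12). Hist1h1e had 104, 114, 107 and 96.6 CPM in controls, 116, 114, 125 and 126 CPM at 3 h, 88.9, 98.1, 99.4 and 109 CPM at 24 h, and 128, 125, 88.6 and 114 CPM at 72 h. At 3 h every mouse was above every control, if only just (lowest 114.2, highest control 114.0), and the ranges overlapped at 24 and 72 h. It did not pass (0.17, -0.12 and 0.09), although without 72 h mouse 3 it passed as higher at 3 h and 72 h (0.17 and 0.19). Hist1h1c, the linker gene known for a polyadenylated transcript, was at 29.4, 32.8, 32.0 and 47.9 CPM in controls and at 28.0, 25.5, 27.4 and 33.1 CPM at 3 h (log2 fold changes -0.18, 0.13 and 0.16, not passing). Hist1h1a had 61.4, 58.6, 60.9 and 68.7 CPM in controls and 42.9, 49.1, 55.7 and 58.0 CPM at 24 h, so every 24 h mouse was below every control (log2 fold change -0.24, adjusted p = 0.090, not passing). For Hist1h1d 3 of 4 mice were below every control at 24 h, with 26.2, 29.98, 28.0 and 32.2 CPM in controls and 19.5, 22.9, 25.5 and 26.4 CPM at 24 h (-0.26, adjusted p = 0.082, not passing).

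**Figure D2:**
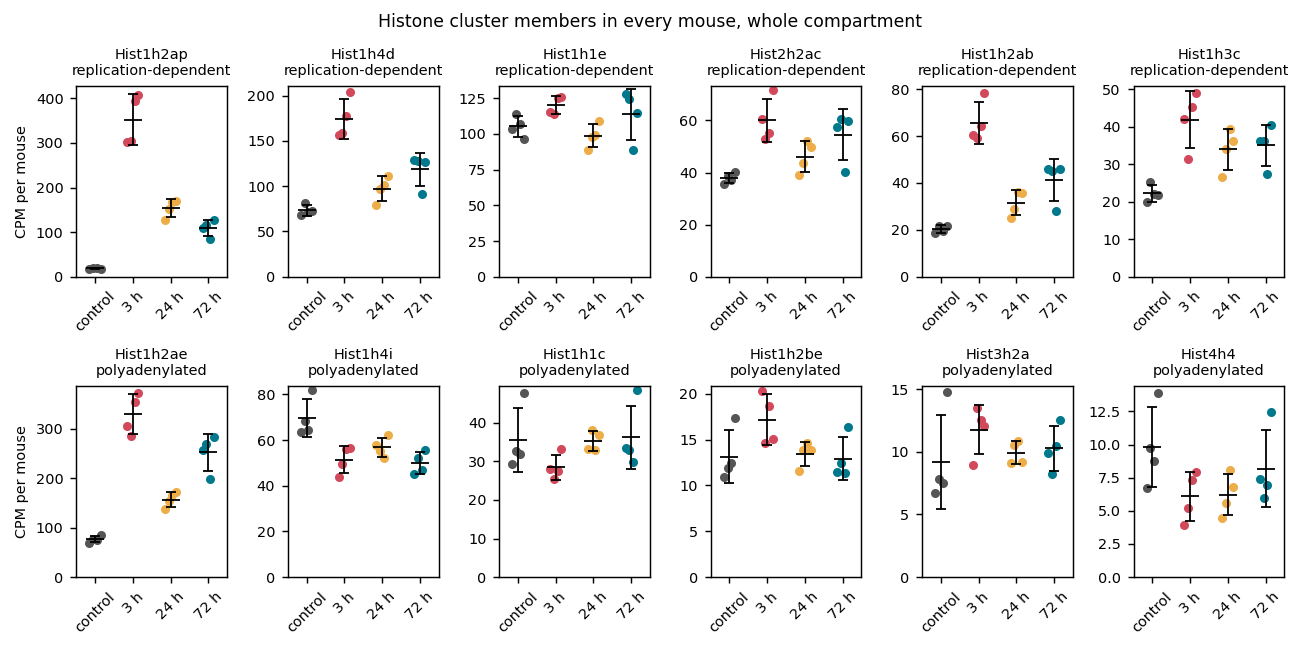
CPM in every mouse (points, y axis from 0) with the mean and SD of 4 mice (bars) for the 6 replication-dependent (top row) and 6 polyadenylated members (bottom row) with the highest mean level, at control, 3, 24 and 72 h (x axis). Hist1h2ap and Hist1h2ae are highest at 3 h with no treated mouse in the control range, the 3 h mice of Hist1h1e lie just above its controls while those at 24 and 72 h overlap them, and Hist1h4i lies below its controls in all 12 treated mice.

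Hist1h4i was the only polyadenylated member called lower over all cells by edgeR's quasi-likelihood test with TMM scaling, and Hist4h4 was called lower too under some other settings, given with its values. This H4 gene shares no 90-base stretch with another gene. Its controls had 63.7, 68.4, 64.4 and 81.8 CPM and its 3 h mice 43.7, 49.5, 56.0 and 56.5 CPM. It stood at 57.7, 55.2, 52.2 and 62.3 CPM at 24 h and at 45.3, 52.1, 46.9 and 55.8 CPM at 72 h, so every treated mouse was below every control. The log2 fold changes were -0.36 (SE 0.08, adjusted p = 0.0016), -0.23 (SE 0.07, adjusted p = 0.026) and -0.42 (SE 0.08, adjusted p = 0.00026). The 24 h call was lost without control mouse 2, 24 h mouse 2 or 24 h mouse 3 (-0.22, -0.21 and -0.19).

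The calls of the remaining polyadenylated members with the highest levels depended on the fit. Hist1h2be (H2B) had 10.9, 11.9, 12.4 and 17.4 CPM in controls and 20.3, 14.6, 18.7 and 15.1 CPM at 3 h, overlapping ranges. It passed at 3 h (0.53, adjusted p = 0.0027) but not with cells thinned to 5000 UMIs (0.27), nor at 24 and 72 h. Its annotated span covers other members of the cluster, so reads of overlapping genes cannot be told apart. Hist3h2a (H2A, chromosome 11) had 6.74, 7.84, 7.50 and 14.8 CPM in controls and 8.97, 13.5, 12.5 and 12.1 CPM at 3 h (log2 fold changes 0.64, 0.39 and 0.44, passing). With thinned cells none of the 3 calls held (0.37, 0.04 and 0.02), and DESeq2's Wald test did not call 24 or 72 h (0.36 and 0.40). The 24 h call was also lost without any 1 of control mice 1, 2 and 3 or 24 h mice 2 and 3 (0.31, 0.40, 0.38, 0.35 and 0.35), and the 72 h call without control mouse 1, control mouse 3 or 72 h mouse 4 (0.35, 0.43 and 0.33). Hist4h4 (H4, chromosome 6) had 6.74, 9.77, 8.78 and 13.9 CPM in controls and 3.94, 5.23, 7.33 and 7.93 CPM at 3 h (log2 fold changes -0.45, -0.47 and -0.07, not passing). It passed as lower at 3 h with library-size scaling (-0.60) and with thinned cells (-0.99), and at 24 h without the filter on low counts (-0.46) or without control mouse 1, 24 h mouse 3 or 72 h mouse 4 (-0.62, -0.59 and -0.47). With the hashtag number as a block it passed at 3 and 24 h (-0.59 and -0.60).

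Large fold changes at low level were seen in Hist1h2ai (H2A) and Hist1h4k (H4), whose control values rest on 22 and 18 UMIs over 4 mice. Hist1h2ai went from 0.298 ± 0.24 CPM (SD, n = 4) in controls to 3.68 ± 0.88 at 3 h, 1.13 ± 0.32 at 24 h and 2.13 ± 0.91 at 72 h. Hist1h4k went from 0.651 ± 0.745 CPM in controls to 2.59 ± 0.57, 0.786 ± 0.43 and 1.58 ± 0.27, and its 24 h mice overlapped the controls. Both genes entered the test through treated mice, so the filter on low counts itself favoured a rise. Their control values were 0.466, 0.511, 0.213 and 0 CPM for Hist1h2ai and 0.415, 0.397, 0.0532 and 1.74 CPM for Hist1h4k. The fitted log2 fold changes were 3.23, 1.45 and 2.46 for Hist1h2ai and 2.99, 1.30 and 2.26 for Hist1h4k. Each passed, with the 24 h call of Hist1h2ai lost without control mouse 3 (1.17), but these calls are not independent of the filter. The 24 h call of Hist1h4k was lost in 13 of 16 leave-one-out fits (0.80 without control mouse 3, 0.95 without 24 h mouse 4, 1.19 to 1.52 in the others). Hist1h2an, another H2A gene without a stem-loop in its annotated transcript, had 6.22, 5.45, 6.17 and 9.57 CPM in controls, 12.7, 14.8, 17.0 and 17.2 CPM at 3 h, and 11.7 to 17.0 CPM at 24 h. At 72 h it was back at 5.68, 7.63, 4.56 and 7.09 CPM, within the control range but for 1 mouse (log2 fold changes 1.36, 1.31 and 0.02).

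At 72 h, 4 members were lower: Hist1h4i, Hist1h2ad (-1.26, adjusted p = 0.047), Hist1h2ag (-0.96, adjusted p = 0.00099) and Hist1h2bk (-0.95, adjusted p = 0.0034). Hist1h2ag (H2A), Hist1h2bk (H2B), Hist1h4i and Hist1h2bj (H2B) are neighbours on chromosome 13 between 22035870 and 22043676. Hist1h2ag had 3.89, 3.86, 3.83 and 9.57 CPM in controls and 1.62, 2.58, 1.97 and 2.33 CPM at 72 h. Hist1h2bk had 2.95, 3.18, 2.39 and 2.61 CPM in controls and 1.48, 1.68, 1.43 and 1.26 CPM at 72 h. In each of them every 72 h mouse was below every control. Hist1h2bj, whose start lies 270 bases from that of Hist1h2ag on the opposite strand, went the other way at 72 h (0.92, adjusted p = 6.6e-05), although its control mouse 4 (20.9 CPM, others 8.52 to 8.94) lay above the 72 h mice (14.7 to 20.9 CPM).

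Summed over the class, the 31 replication-dependent members stood at 412 ± 29 CPM in controls (SD, n = 4), 1075 ± 140 at 3 h, 615 ± 76 at 24 h and 653 ± 92 at 72 h, which is 2.61, 1.49 and 1.59 times control. All treated mice lay above all controls. Hist1h2ap carried much of this: without it the sum was 393, 723, 461 and 544 CPM, or 1.84, 1.17 and 1.38 times control. The polyadenylated sum was 229 ± 34, 463 ± 54, 294 ± 22 and 388 ± 53 CPM, or 2.02, 1.28 and 1.69 times control. Without Hist1h2ae it was 152, 133, 137 and 136 CPM, or 0.877, 0.904 and 0.893 times control. Without control mouse 4 (58 cells) as well, the control sum was 138.5 ± 8.2 CPM (n = 3) and the ratios were 0.963, 0.993 and 0.981. Then 1 mouse at each time lay above every control, so this sum lay close to control. The 22 unclassed members, which include Hist1h1b, were also summed without control mouse 4. They stood at 651 ± 43 CPM in controls (n = 3) and at 1.09, 0.920 and 0.958 times control. Of the mice at the successive times, 2, 0 and 1 lay above every control, so the rise of the replication-dependent sum was not seen in the sum of this class. Hist1h1b alone gave 78708 of the 126554 UMIs of these members. Most tested unclassed members were higher at 3 h, as counted above, so their sum does not describe the single members. With all control mice, the polyadenylated sum also fell below control when members sharing 90-base stretches were left out (log2 ratios -0.26, -0.17 and -0.22). Leaving out Hist1h2ap, Hist1h2ae or control mouse 4 was chosen after the data were seen. The 6 H1 genes together went from 662 ± 39 CPM to 647 ± 60, 568 ± 71 and 607 ± 106, and the 63 core members from 631 ± 82 to 1599 ± 203, 940 ± 96 and 1058 ± 133.

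Transcript length moved with these values. Of the tested members, 34 have a longest transcript of up to 700 bases, and 27 of them (79.4%) were higher at 3 h with a median log2 fold change of 1.00. Other tested genes of that length (257) had a median of 0.35 and 49.8% were higher at 3 h, falling to 0.17 and 34.2% at 24 h and 0.24 and 40.1% at 72 h. Among other genes of 700 to 1500 bases the 3 h median was -0.03 and 21.8% were higher, while 6 of 11 members of that length were higher with a median of 0.84. From 1500 to 3000 bases, 3 of 9 members were higher with a median of -0.18, where other genes had a median of -0.05 and 18.2% were higher. The part of transcript length in the members' change was not tested.

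Genes that make and handle histone messages were counted in the same fit, where 19.7, 14.5 and 18.9% of all tested genes were higher and 19.2, 13.8 and 18.5% lower at 3, 24 and 72 h. Of 8 genes of histone gene transcription, 2 were higher at 3 h and 0 later, while 3, 1 and 3 were lower at the successive times. Those higher at 3 h were Ccne2 (0.54), a cyclin E, and Casp8ap2 (0.15), a histone locus body protein. Cdk2, the kinase partner of cyclin E, was lower at 3 and 72 h (-0.24 and -0.22), and E2f1 did not pass at any time (-0.03, -0.06 and -0.07). Of 13 tested genes of 3′ processing and decay, the numbers higher at the successive times were 1, 2 and 2, and the numbers lower were 3, 1 and 4. Slbp, which binds the stem-loop, did not pass at 3 or 24 h and was lower at 72 h (-0.02, -0.11 and -0.17), and Zcchc6, a terminal uridylyl transferase, was higher at all 3 times (0.80, 0.18 and 0.28). Of 17 chaperones 5, 3 and 3 were higher and 4, 2 and 3 lower. Replacement histones outside the clusters, 11 genes whose transcripts are polyadenylated, counted 2, 2 and 3 higher and 6, 5 and 5 lower. H2afz was lower at each time (-0.23, -0.18 and -0.36), as was H3f3a (-0.23, -0.08 and -0.11), while H2afy was lower at 3 h alone (-0.22) and H3f3b did not pass (0.04, -0.05 and -0.04). H1f0, a linker histone of resting cells that was named after its values were seen, was higher at each time (0.43, 0.36 and 0.42).

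Cell cycle phase was then compared, since cluster genes follow it. Phases were called per cell, on counts thinned to 5000 UMIs, from 43 S and 52 G2/M genes that include no cluster gene, and 15.7% of cells lay within 0.05 of a phase limit. Within mice, 34 of 44 tested members were higher and 4 lower in S-called than in G1-called cells, where 36.3% of all genes were higher and 40.0% lower. In G2/M-called against G1-called cells 41 were higher and 2 lower (35.9% and 38.9% of all genes). All lineages were pooled here. In control mice 80.6 ± 2.6% of stem cell-like (HSC-like) but 7.12 ± 2.2% of myeloid progenitor-like cells were G1-called (lineage classes are described below). Phase and lineage therefore cannot be told apart in these differences. Hist1h2af, an H2A gene, differed most (log2 difference 5.34 in S and 7.27 in G2/M), followed by Hist1h3c (4.04 and 6.03), and Hist1h1b was also high (3.48 and 4.80). Hist1h2ap differed by 2.19 and 3.87, and Hist1h4h by 0.50 and 1.98. The 4 members lower in S than in G1 were Hist1h1c (-1.0), Hist1h2bc (-1.22), Hist3h2a (-1.69) and Hist3h2ba (-2.42), of which 3 are in the polyadenylated class. In the same class, Hist1h2ae (1.91), Hist1h4a (1.24) and Hist1h4i (0.45) were higher in S. Hist1h2be, Hist2h2be, Hist2h4 and Hist4h4 passed neither way.

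The share of S-called cells per mouse was 43.7 ± 2.7% in controls, 48.9 ± 2.7% at 3 h, 46.9 ± 3.1% at 24 h and 41.3 ± 3.6% at 72 h (SD, n = 4), and that of G2/M-called cells 25.05 ± 3.1, 17.7 ± 1.2, 22.03 ± 2.0 and 18.3 ± 0.76%. Of the 52 G2/M genes 37, 32 and 43 were lower at 3, 24 and 72 h, so the phase calls and the treatment are not independent. Within called phases, again with all lineages pooled, a part of the members was still higher, the fewest in G1-called cells at 24 h. HSC-like cells were 336 of 2474 control and 412 of 1661 3 h cells, and the part of lineage within phases was not tested. In S-called cells 27 of 45 tested members were higher and 1 lower at 3 h (17.3% and 14.9% of all genes), 18 and 1 at 24 h (11.6% and 10.4%), and 23 and 2 at 72 h (13.9% and 12.9%), with 10 instead of 18 at 24 h without control mouse 1. In G1-called cells 8 of 24 rose at 3 h and 0 fell, against 13% and 7.7% of all genes. The 24 h count was 3 higher and 1 lower (4.57% and 2.16% of all genes), that of 72 h 6 and 0 (4.64% and 3.33%). H1 genes were again not called in S-called cells (0 of 5 at each time by edgeR, also 0 at an unadjusted p under 0.05), and Hist1h1d was lower in G1-called cells at 24 h (-1.03). In G2/M-called cells single genes were not tested over time. Without control mouse 4, a choice made after the data were seen, the H1 sum there was 1.32, 0.945 and 1.16 times control. At the successive times 4, 1 and 3 mice lay above every control. In S-called cells these ratios were 0.895, 0.901 and 0.943.

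Hist1h2ap rose in each phase. In G1-called cells it was at 3.57 ± 2.7 CPM in controls and 53.1 ± 13 at 3 h, in S-called cells at 13.3 ± 1.3 and 237 ± 25, and in G2/M-called cells at 35.5 ± 1.6 and 900 ± 191 (SD, n = 4). No 3 h mouse was within the control range in any phase. The replication-dependent sum in G2/M-called cells went from 748 ± 89 CPM to 2606 ± 543, 1300 ± 214 and 1452 ± 282. In G1-called cells it went from 180 ± 53 to 333 ± 20, 179 ± 24 and 252 ± 20, so that the 24 h mice overlapped the controls. Without control mouse 4, a choice made after the data were seen, the control sum in G1-called cells was 153 ± 3.1 CPM (n = 3). The 24 h sum was then 1.17 times control with all 4 mice above the controls, so the overlap rested on that mouse. Hist1h1b in S-called cells stayed at 328 ± 76, 313 ± 38, 323 ± 40 and 325 ± 66 CPM. After thinning each cell to 5000 UMIs, a cell held 1.87 ± 0.13 replication-dependent UMIs in controls, 4.12 ± 0.51 at 3 h, 2.76 ± 0.30 at 24 h and 2.73 ± 0.43 at 72 h.

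**Figure D3:**
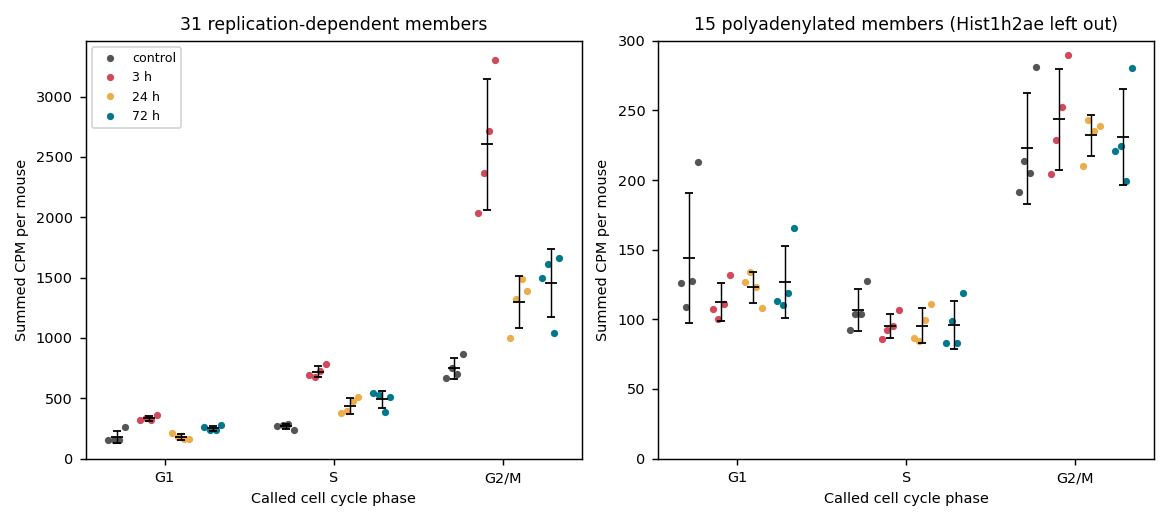
Summed CPM per mouse (points, y axes from 0) with mean and SD of 4 mice (bars) in G1-, S- and G2/M-called cells (x axis) for the 31 replication-dependent members (left) and 15 polyadenylated members without Hist1h2ae (right). On the left all 3 h mice lie above all controls in every phase; on the right the groups overlap in every phase.

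Lineage classes were built by clustering control cells without cluster and cell cycle genes and transferring the names to treated cells. Across classes in control mice, the replication-dependent sum was 192 ± 81 CPM in HSC-like (stem cell-like), 264 ± 50 in myeloid progenitor-like, 282 ± 42 in MK (megakaryocyte) progenitor-like, 406 ± 37 in erythroid progenitor-like and 611 ± 254 in LMPP-like (lymphoid-primed) cells. The ranges over mice of HSC-like, myeloid and MK cells overlapped, and those of erythroid (378 to 448.5) and LMPP-like cells (448.7 to 989) nearly touched. These levels are a description. Erythroid and MK classes had 3 control mice with enough cells, the others 4. At 3 h these sums were 1.74, 2.28, 4.65, 2.95 and 1.90 times control in that order, at 24 h 0.959, 1.27, 1.69, 1.63 and 1.005 times, and at 72 h 1.23, 1.38, 1.74, 1.998 and 1.42 times. Control mouse 4, with 10 HSC-like, 11 LMPP-like and 13 myeloid cells, was above the other controls in HSC-like (313 against 140 to 160 CPM) and LMPP-like cells and below them in myeloid cells (191 against 279 to 306 CPM). Without it, a choice made after the data were seen, the control sums were 151 ± 9.8, 485 ± 44 and 289 ± 15 CPM (n = 3) in HSC-like, LMPP-like and myeloid cells. The successive times then stood at 2.21, 1.22 and 1.56 times control in HSC-like cells, at 2.40, 1.27 and 1.79 times in LMPP-like cells and at 2.09, 1.16 and 1.26 times in myeloid cells, so the 24 h ratio below 1 in HSC-like cells rested on that mouse.

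**Figure D4:**
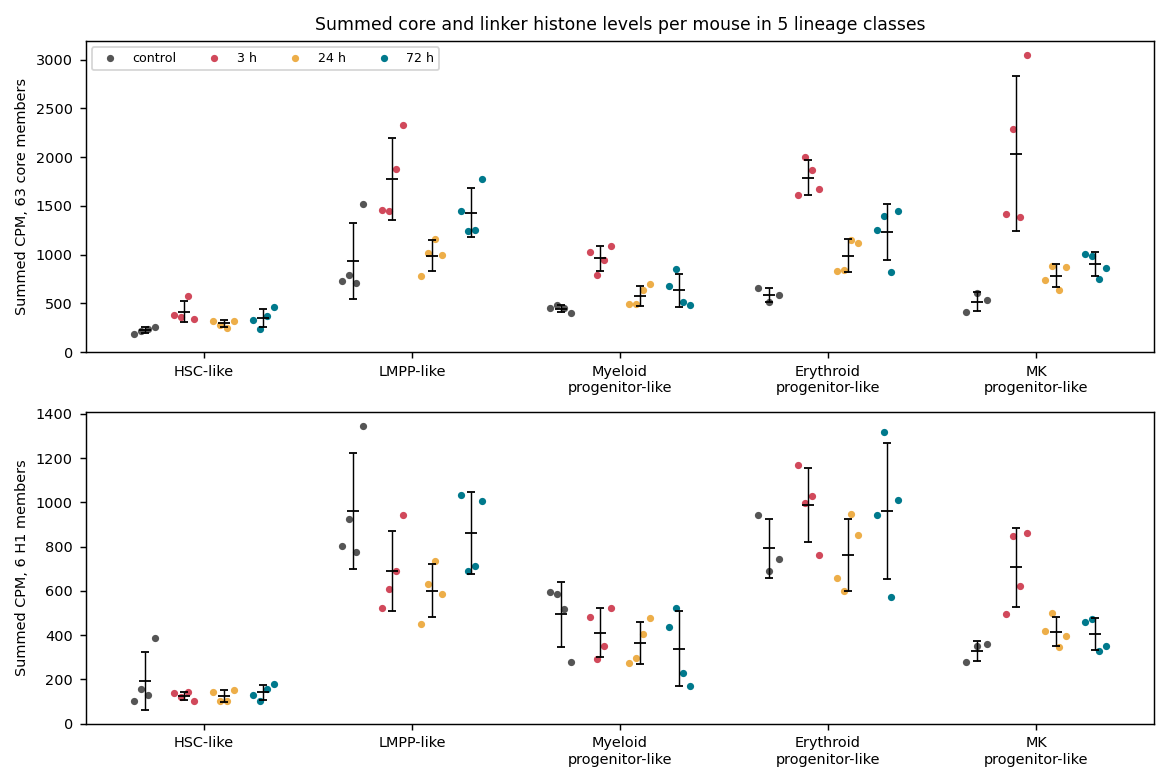
Summed CPM per mouse (points, y axes from 0) with mean and SD (bars) for the 63 core members (top) and the 6 H1 members (bottom) in 5 lineage classes (x axis) at control, 3, 24 and 72 h; erythroid and MK controls are 3 mice. The core sum in MK progenitor-like cells goes from 517 to 2035 CPM at 3 h, and the H1 sum there from 329 to 707 CPM, with all 4 mice above the controls.

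In HSC-like cells 16 members were tested, and 4 were higher and 0 lower at 3 h (11.9% and 6.01% of all genes), 2 and 0 at 24 h (3.04% and 1.1%), and 4 and 0 at 72 h (2.93% and 1.31%). Hist1h2ap went from 3.31 ± 2.9 CPM (16 UMIs over the 4 controls) to 44.1 ± 33, 21.5 ± 7.5 and 16.5 ± 9.2 CPM (log2 fold changes 3.58, 2.29 and 1.95, all passing). With 0 to 6.82 CPM in controls, it entered this test through treated mice, so its calls are not independent of the filter on low counts. Hist1h2ae was higher at 3 and 72 h (2.04 and 2.12) and did not pass at 24 h (1.25, adjusted p = 0.072). Hist1h2bc, a mostly polyadenylated H2B gene that the rule left unclassed, was the other member to pass at 24 h (0.84, adjusted p = 0.032). These counts rest on few calls: at 3 h it was 7 without 3 h mouse 2, at 24 h 1 without any 1 of the 4 control mice or 24 h mouse 1, and at 72 h 2 without control mouse 1, control mouse 2 or 72 h mouse 3. DESeq2's Wald test called 0 at 24 h and 2 at 72 h.

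In LMPP-like cells 18 of 42 tested members were higher and 0 lower at 3 h (11.3% and 5.79% of all genes), 4 and 4 at 24 h (5.18% and 2.31%), and 15 and 0 at 72 h (4.11% and 1.61%). Hist1h2ap rose from 25.4 ± 6.4 to 383 ± 109 CPM at 3 h. Cluster 12 held 23.0% of control cells of this class and 14.3, 10.6 and 9.32% at 3, 24 and 72 h, the rest being in cluster 2, and the part of this shift was not tested. At 24 h the lower members were the linker genes Hist1h1a (-0.74), Hist1h1b (-0.62) and Hist1h1d (-0.65) and the H4 gene Hist4h4 (-1.11). Hist1h1d lost its call without control mouse 1, 24 h mouse 1 or 24 h mouse 4 (range over all leave-one-out fits -0.80 to -0.56) and Hist4h4 without control mouse 2 (-0.91), while the other linker genes kept theirs. The 24 h count of 4 higher became 1 without control mouse 1 or 24 h mouse 2 and 2 without control mouse 3 or 24 h mouse 3, and the 72 h count of 15 became 9 without control mouse 1 or 3 and 8 without 72 h mouse 1. DESeq2's Wald test called 1 and 6 higher at these times.

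In myeloid progenitor-like cells 17 of 38 were higher and 1 lower at 3 h (13.7% and 10.4% of all genes), 4 and 3 at 24 h (8.55% and 6.57%), and 9 and 6 at 72 h (7.77% and 6.93%). The member lower at 3 h was the H4 gene Hist1h4i (-0.46), whose call was lost without 3 h mouse 4 (-0.36). All 3 lower at 24 h were linker genes, Hist1h1a, Hist1h1d and Hist1h1e (-0.48, -0.53 and -0.58). Of the 6 lower at 72 h, 3 were linker genes, Hist1h1a, Hist1h1b and Hist1h1d (-0.55, -0.87 and -0.71), and the others were Hist1h4i (-0.44), the H2A gene Hist1h2ag (-1.09) and the H2B gene Hist1h2bk (-1.28). Hist1h1e at 24 h and Hist1h4i at 72 h held in all 16 leave-one-out fits (-0.74 to -0.51 and -0.55 to -0.35). The others did not: at 24 h, Hist1h1d was lost without any 1 of the 4 control or 4 3 h mice or 24 h mouse 1 or 2, and Hist1h1a without control mouse 1, 2 or 3 or 24 h mouse 1, 2 or 3. At 72 h, Hist1h1b was lost without control mouse 1 or 72 h mouse 3 or 4 (-1.12 to -0.60), Hist1h1d without control mouse 2 or 3 or 72 h mouse 3 or 4, Hist1h2ag without control mouse 1 or 3 or 72 h mouse 1, 3 or 4, Hist1h2bk without control mouse 1, 2 or 3 or 72 h mouse 1, 2 or 4, and Hist1h1a without 10 of the 16 mice. Cluster 1 held most control cells of this class (42.4%) and cluster 5 most treated cells (56.0, 52.7 and 48.3% at 3, 24 and 72 h), and the part of this shift in the values was not tested. Hist1h2ap still rose, from 13.6 ± 3.9 to 207 ± 45 CPM at 3 h (3.79).

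In erythroid progenitor-like cells 20 of 37 were higher and 0 lower at 3 h (9.51% and 4.37% of all genes), 7 and 0 at 24 h (6.9% and 4.71%), and 11 and 0 at 72 h (3.43% and 1.96%). Hist1h2ap rose from 18.7 ± 2.0 CPM (n = 3) to 395 ± 66 (n = 4) at 3 h (4.41), and H1 genes had 0 of 5 calls at each time by edgeR (1, 0 and 0 at an unadjusted p under 0.05). The H1 sum was 1.25, 0.962 and 1.21 times control, with 3, 1 and 2 mice above every control. Cluster 11 held 35.8% of control cells of this class and 23.4, 22.9 and 28.7% at the successive times, the rest being in cluster 9, and its part was not tested. The 24 h count was 4 without control mouse 3 or 24 h mouse 4 and 11 without 24 h mouse 1, and the 72 h count was 7 without control mouse 3.

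MK progenitor-like cells, a single cluster, showed the largest median change of the 5 classes at 3 h: 25 of 35 tested members were higher and 0 lower (8.22% and 2.52% of all genes), with a median log2 fold change of 1.97. Some of these members entered the test through treated mice, so the count and the median are not independent of the filter on low counts. Hist1h4a, higher at 3 h (3.34), had 4 UMIs over the 3 control mice and 8.20 to 14.6 CPM in the 3 h mice. Here linker genes took part, Hist1h1b (1.48), Hist1h1a (0.99) and Hist1h1e (0.81) being higher, and all 3 kept their calls in every leave-one-out fit. Phase calls moved too: G1-called cells made up 40.9 ± 4.0% of control and 28.4 ± 3.5% of 3 h cells of this class, and S-called cells 43.4 ± 6.9% and 54.9 ± 5.1% (SD over 3 and 4 mice), and the part of phase in these values was not tested. Hist1h1b went from 160 ± 27 CPM (n = 3) to 436 ± 138 (n = 4), and Hist1h2ap from 13.5 ± 4.8 to 430 ± 176 (4.99). At 24 h 7 were higher and 0 lower (2.85% and 0.866%) and at 72 h 8 and 1 (2.76% and 1.51%). The linker gene Hist1h1b was among those higher at 24 h (0.59), a call lost without control mouse 1 or 2 or 24 h mouse 2. The member lower at 72 h was Hist1h4i (-0.57), which lost its call without control mouse 2 or 3 or 72 h mouse 2 or 3. The counts of higher members at 24 and 72 h became 3 and 3 without control mouse 1, and 4 and 5 without control mouse 2. They were 4 at 24 h without 24 h mouse 4, and 5 at 72 h without control mouse 3 or 72 h mouse 1. When only cluster genes, and not cell cycle genes, were kept from placing the cells, 19 and 22 were higher at 24 and 72 h. In that setting the class also took in a cluster of 197 control cells, beside 1 of 266. Its leading genes were Pf4, Nusap1, Prc1, Cenpf, Ube2c and Mki67, so these counts are over a different set of cells. Differences between classes were not tested except in 1 case: 33 members were compared for the time effect in HSC-like minus myeloid progenitor-like cells, and 0 passed at any time by edgeR, where 3.52%, 1.49% and 0.5% of all genes passed in either direction. At an unadjusted p under 0.05 these members counted 3, 2 and 5. Without 1 mouse the count was 1 at 3 h for control mouse 3, 3 h mouse 1 or 4 and each of the 24 and 72 h mice, and 2 at 72 h without 72 h mouse 2. The smallest adjusted p was that of Hist1h4d at 3 h (0.86, adjusted p = 0.054).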

How the data were processed

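The deposited tables hold raw UMI counts per gene and cell for 4 transcriptome libraries, with hashtag calls per cell; per the labels, the authors aligned to mm10 with Cell Ranger 3.1.0 and assigned cells to mice with Seurat. The deposited hashtag margin is a score that the authors made in demultiplexing and was not used in tests. Cells called as doublet or negative, over 5% mitochondrial UMIs or under 700 genes were left out here, and no further doublet caller was run. Counts were summed per mouse (and per class or phase, at least 10 cells per mouse) and tested with edgeR 4.0.16 (quasi-likelihood, TMM scaling, Benjamini-Hochberg over all genes tested); DESeq2 1.42.0 was an alternative. Simulated counts with the same spread for every gene were used to check some of the tests. These were the 24 h contrast over all cells, in HSC-like and in myeloid cells, and S against G1. HSC-like cells were exempt from the limit set for finding changed genes. The 3 h and 72 h contrasts, the other classes and the difference between classes were not simulated. CPM are counts per 1e6 UMIs of the TMM-scaled library size. Clustering used Scanpy 1.11.5 on control cells (500 variable genes, 10 principal components, Leiden resolution 0.8). Treated cells were shifted toward control cells by a mutual nearest neighbour correction and took the most common label of their 15 nearest control cells. Clusters 4 and 10 (246 and 135 control cells) stayed unnamed and were in no class test. Cluster 4 had Nusap1, Mki67 and Hist1h2af among its leading genes. Named genes are the 6 replication-dependent and 6 polyadenylated members of highest mean level, the members of largest change, up to 4 genes of highest mean level in each other list, and the linker, lower and other genes that the text singles out. The last kind was chosen after values were seen. Members and lists were chosen with earlier results of these data known. Stem-loops were searched in annotated GENCODE vM21 transcripts only, not beyond their ends as first planned. Alternatives were other scaling, tests, filters, thinning, class rules and leaving out each mouse.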

Additional observations from a re-analysis of the deposited data

Results flagged for a closer look

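In groups of 4 mice, a mouse was singled out where its gap to the nearest other mouse was a larger part of the group's range than Dixon's 95% limit. Of 60 groups 5 met this, where chance gives about 1 in 20 for independent groups. These groups are not independent, because they share mice and the summed level contains Hist1h4d, Hist2h2ac and Hist1h2ab. The count therefore cannot be set against chance. At 72 h, mouse 3 lay below the other mice in 4 of the 5 flagged groups. It had 91.2 CPM of Hist1h4d (others 126 to 129), 40.2 CPM of Hist2h2ac (others 57.5 to 60.6) and 28.1 CPM of Hist1h2ab (others 45.1 to 46.1). Its summed replication-dependent level was 516 CPM (others 688 to 708). Control mouse 4, which had 58 cells, had 14.8 CPM of Hist3h2a (others 6.74 to 7.84).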

How the results depend on the processing

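Counts below are of members higher than control at 3, 24 and 72 h. With an absolute log2 fold change over 1 they were 23, 7 and 11 over all cells, and at 24 h 1 in HSC-like, 1 in LMPP-like, 2 in myeloid and 4 in erythroid progenitor-like cells. Of all tested genes 6.9, 2.22 and 2.86% passed this limit over all cells, and 0.663, 1.31, 1.38 and 2.16% in these 4 classes at 24 h. With cells thinned to 5000 UMIs the member counts were 22, 10 and 13. Without the filter on low counts they were 8 in HSC-like and 26 in myeloid cells at 3 h, 11 and 17 in erythroid cells at 24 and 72 h, and 2, 1 and 4 for HSC-like minus myeloid cells. DESeq2's Wald test gave 0 and 2 in HSC-like, 1 and 6 in LMPP-like and 3 and 5 in MK cells at 24 and 72 h, and 7 in erythroid cells at 72 h. Label transfer without correction gave 7 and 1 in HSC-like cells at 3 and 24 h. With only cluster genes left out of placing, HSC-like cells gave 7 and 5 at 3 and 24 h and MK cells 19 and 22 at 24 and 72 h. The MK class then also held a cluster of 197 control cells led by Pf4, Nusap1, Prc1 and Cenpf.

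The summed replication-dependent level (log2 over control 1.38, 0.58 and 0.66) was 0.85, 0.23 and 0.38 with the polyadenylated class taken from the hand-made list, 0.99 and 0.21 at 3 and 24 h without members sharing 90-base stretches, and 0.88 and 0.23 without Hist1h2ap. The polyadenylated level (1.01, 0.36 and 0.76) was 0.38, 0.15 and 0.25 with the hand-made list, and turned to -0.26, -0.17 and -0.22 without sharing members and to -0.19, -0.15 and -0.16 without Hist1h2ae. Without both Hist1h2ae and control mouse 4, the polyadenylated level was 0.963, 0.993 and 0.981 times control. The causes were not tested.

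Leaving out 1 mouse gave 31 to 39, 16 to 27 and 24 to 28 over all cells; 3 to 7, 1 to 3 and 2 to 4 in HSC-like; 13 to 19, 1 to 4 and 8 to 17 in LMPP-like; 14 to 19, 4 to 5 and 6 to 9 in myeloid; 16 to 21, 4 to 11 and 7 to 16 in erythroid; and 24 to 27, 3 to 8 and 3 to 8 in MK cells. It gave 24 to 28, 10 to 20 and 19 to 25 in S-called and 6 to 9, 2 to 4 and 5 to 7 in G1-called cells. It gave 0 to 1, 0 to 0 and 0 to 2 for HSC-like minus myeloid cells, 31 to 34 for S and 38 to 41 for G2/M against G1. The replication-dependent level ranged over 1.31 to 1.44, 0.52 to 0.65 and 0.62 to 0.76, and the polyadenylated level over 0.95 to 1.12, 0.30 to 0.47 and 0.68 to 0.87.

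Hashtag numbers were not taken as pairing the mice. Correlations of 24 same-numbered pairs ran from -0.18 to 0.38, and 9 were over 0.1. Those between 3 h and 24 h mice ran from 0.09 to 0.32. Pairs with different numbers were not compared, so these values cannot exclude a pairing. With the number as a replicate block, 35, 20 and 27 members were higher and 3, 8 and 6 lower.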
